A study of Mus musculus with 3 samples.

Results

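Nos1-only and Chat-only neurons are enteric neurons that were selected by the transcripts of 2 enzymes. *Nos1* encodes neuronal nitric oxide synthase, and *Chat* encodes choline acetyltransferase, which makes acetylcholine. A cell was called Nos1-only when it held at least 2 unique molecular identifiers (UMIs, each standing for 1 captured RNA molecule) of *Nos1* and 0 of *Chat*, and Chat-only when it held at least 1 UMI of *Chat* and 0 of *Nos1*. Of 2060 neurons, 762 were Nos1-only and 277 were Chat-only, together 1039 cells. Mouse 1 gave 105 and 16 of them, mouse 2 gave 427 and 148, and mouse 3 gave 230 and 113. The rest were in neither side: 200 held 1 UMI of *Nos1* and no *Chat*, 103 held both transcripts and 718 held neither. The levels of *Nos1* and *Chat* chose the cells, so they are given as a description and were not tested.

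Single cell RNA-seq had been made from the small intestine of 3 Ednrb-KO mice at postnatal day 14, with a separate library (10x Chromium v3.1) for each mouse. All 3 mice were Wnt1-tdT; *Ednrb*-/-, of strain C57BL/6 by the labels, although the stock names in the paper give the *Ednrb* and reporter lines a mixed background. By this genotype every cell below lacked functional endothelin receptor B, and no wild-type cell was analysed here. Cre under the *Wnt1* driver turned on the tdTomato reporter in cells derived from the neural crest, and red cells were sorted from the longitudinal muscle with its myenteric plexus, taken along the whole small intestine, which still has ganglia in these mice although the distal bowel lacks them. The deposited cells are those the authors called neurons. Both sides came from the same 3 libraries, so each mouse served as its own pair.

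In the myenteric plexus the motor neurons that relax the muscle make nitric oxide and usually vasoactive intestinal peptide, and those that contract it release acetylcholine, often with tachykinins. Nitric oxide is made from arginine on demand and diffuses to the muscle, whereas acetylcholine is packed into vesicles after choline has been taken up again from outside the cell. Excitatory and inhibitory neurons are thought to part early, on branches marked by the transcription factors BNC2 and ETV1, and many interneurons and sensory neurons also use acetylcholine, so a *Chat* transcript is not by itself the mark of a motor neuron.

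Levels are given as UMIs of a gene per 10000 UMIs, from the UMIs summed over the cells of a side in a mouse. *Nos1* stood at 12.6, 11.7 and 10.4 in the Nos1-only cells of mice 1, 2 and 3, with a median of 7 and a maximum of 76 UMIs per cell. *Chat* stood at 2.72, 1.50 and 1.84 in the Chat-only cells, with a median of 1 and a maximum of 8 UMIs per cell. The Chat side therefore rests on few molecules, as 166 of its 277 cells held a single *Chat* UMI and 74 held 2, while 98 of the 762 Nos1-only cells stood at their limit of 2.

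The gene that was knocked out was still read. *Ednrb* stood at 1.66, 2.21 and 1.71 in Nos1-only cells and at 2.42, 1.50 and 1.19 in Chat-only cells, with overlapping ranges and a log2 difference of 0.42 ± 0.18 (SE, adjusted p = 0.156, limma). That difference passed the threshold in 5 of 18 alternatives: among them it was 0.54 without mouse 1 (adjusted p = 4.49e-04, limma), 0.69 with at least 2 *Chat* UMIs (0.00251) and 1.27 without cells holding glial marker RNA (0.0137), and over all alternatives it ran from 0.17 to 1.27, with adjusted p up to 0.915. These reads come from the 3′ end of transcripts and, without wild-type cells, check nothing about the allele.

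The sums held 499617, 4554934 and 2295374 UMIs for the Nos1-only cells of mice 1, 2 and 3, and 66148, 1490475 and 1111389 for the Chat-only cells. Median UMIs per cell were alike over all mice (9543 and 9676) but lower in mouse 1 on both sides (4115 and 3342.5). In the 16 Chat-only cells of mouse 1 a single UMI amounts to 0.151 per 10000, and a count of 0 there allows up to 0.454 (3 UMIs, for counting error only). Mitochondrial transcripts took 3.03% of the UMIs on the Nos1 side and 4.14% on the Chat side. There were 2 barcode sequences that occurred in more than 1 library, which touched 4 cells, 3 of them on either side.

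Both sides carried neuronal genes at like levels, and they differed in RNA of other cell types. The summed level of 30 neuronal markers was 222, 193 and 195 in Nos1-only cells and 224, 175 and 202 in Chat-only cells. The sums of 15 glial markers were 24.8, 38.2 and 27.0 against 20.4, 26.7 and 18.1, higher on the Nos1 side in each mouse. Of the 13 tested, 4 passed on the Nos1 side (S100b, *Foxd3*, *Fabp7* and *Apoe*, 30.8%, against 4.78% of all genes). *Sox10*, which defines glia, stood at 1.64, 1.34 and 1.24 against 0.756, 0.912 and 0.882 and did not pass (adjusted p = 0.0509, limma), and no glial marker was at 0 in mice 2 and 3. The sums of 10 smooth muscle markers were 29.0, 22.2 and 17.04 against 24.9, 9.86 and 10.5. Of the 10, 7 were called higher on the Nos1 side (70%, against 4.78%), among them *Acta2* with a log2 difference of 1.05 ± 0.16 (adjusted p = 5.32e-04, limma). A single cell of Chat-only mouse 1 held 24 of its 25 *Myh11* UMIs and 24 of its 28 *Acta2* UMIs. For interstitial cells and fibroblasts the sums were 10.5, 3.63 and 2.71 against 5.74, 2.17 and 2.18. Of 6 tested, 2 were called higher on the Nos1 side (*Col1a2* and *Col3a1*, 33.3%, against 4.78%). For immune cells the sums were at most 0.640, with 0 of 3 called by limma, also at an unadjusted p under 0.05, where 10.3% of all genes were called at the adjusted threshold. Endothelial and epithelial markers summed to at most 0.756, and 0 of the 1 tested was called by limma, although it passed at an unadjusted p under 0.05, higher on the Chat side. The part of such RNA in the differences below was not tested, but the comparison was repeated without cells holding glial marker RNA and without cells holding both *Acta2* and *Myh11*. Of the named genes called in the main comparison, 88 of the 110 that could be fitted were called again without the first and 100 of 112 without the second, and each of these 110 and 112 kept its sign.

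**Figure D1:**
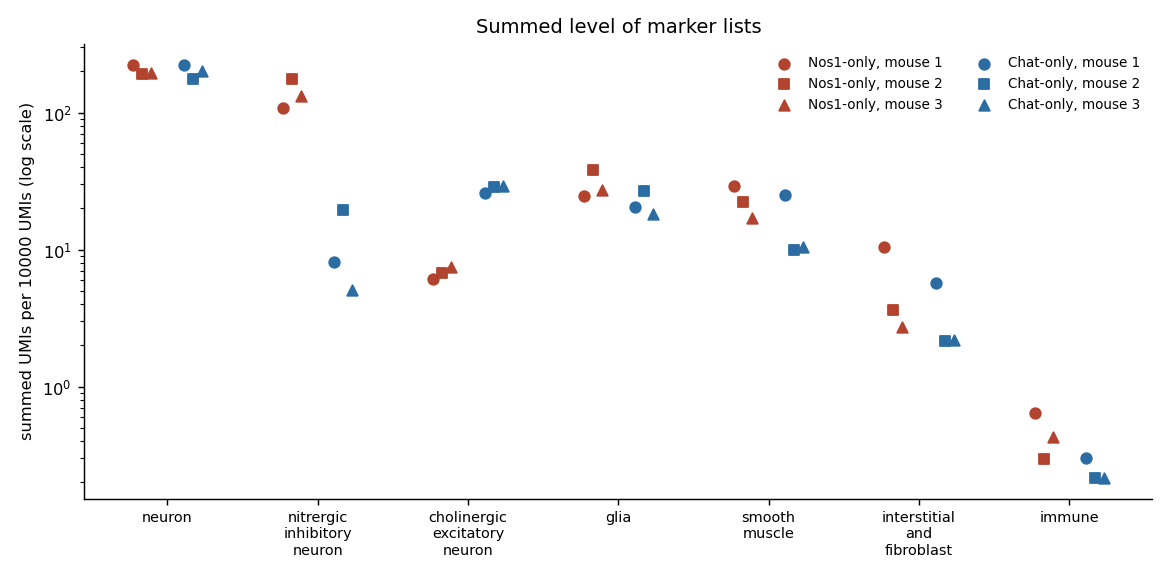
Summed level of 7 marker lists in UMIs per 10000 UMIs on a log axis, with Nos1-only cells in red, Chat-only cells in blue and 1 symbol per mouse. The neuronal sums lie close together, and the nitrergic and cholinergic lists, which include Nos1 and Chat themselves and so are set in part by the choice of cells, part the sides in opposite directions. The glial and smooth muscle sums are higher on the Nos1 side in each mouse.

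Across the transcriptome, genes that were higher on the Nos1 side and genes that were higher on the Chat side were nearly balanced in number. The 6 sums were compared with limma-voom with the mouse as a block, over 11038 genes with at least 50 UMIs, leaving out *Nos1* and *Chat*. At an adjusted p under 0.05, 528 genes (4.78% of those tested) were higher in Nos1-only cells and 610 (5.53%) were higher in Chat-only cells, together 1138 (10.3%). In 2041 genes (18.5%) the 3 levels of one side did not overlap the 3 of the other. The median log2 difference, Nos1-only minus Chat-only, was -0.13 over all genes, against -0.02 when the sums were scaled by median of ratios, which called 713 and 447 genes and so moved the share that is higher on the Nos1 side from 46.4% to 61.5%. Counts of calls depended on the fit and on the mice: limma-trend on log2(CPM + 1), which uses another transformation and gives the 6 sums equal weight, called 3 and 2 genes, and leaving out mouse 1, 2 or 3 gave 1024 and 1524, 122 and 139, or 262 and 326. Of the 127 called genes that are named by rule, 24 were picked from outside the gene lists on condition of a like sign in 3 mice. Of the other 103, picked as the largest calls of each list, 88 showed their direction in 3 of 3 mice and 15 in 2 of 3.

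**Figure D2:**
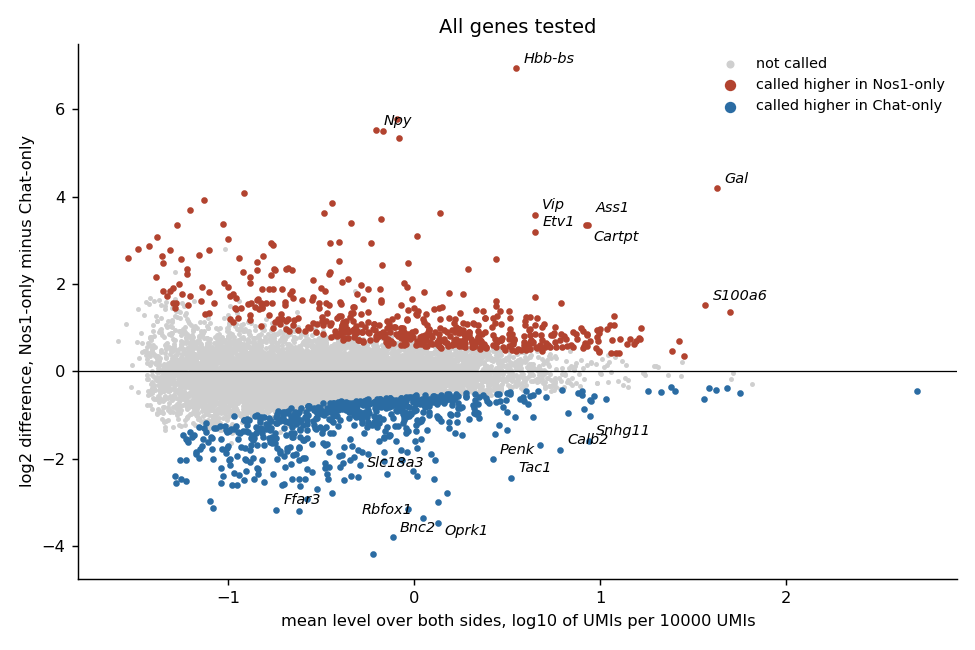
Each point is a gene tested, placed by its mean level over both sides (log10 of UMIs per 10000 UMIs) and by its log2 difference, Nos1-only minus Chat-only, with called genes in red (528, higher in Nos1-only) and blue (610, higher in Chat-only). Hbb-bs, at the top, rests on a single cell of mouse 3.

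Besides *Chat* itself, both transporters that supply acetylcholine release were higher on the Chat side, and most genes of the pathway were not called. Of 12 genes tested in a list for acetylcholine synthesis and transport, 4 were higher in Chat-only cells, 1 was higher in Nos1-only cells and 7 did not pass (33.3% and 8.33%, against 5.53% and 4.78% of all genes), with a median log2 difference of -0.37. *Slc18a3*, the transporter that loads acetylcholine into vesicles, stood at 0.50, 0.47 and 0.69 in Nos1-only cells and at 1.36, 2.39 and 2.38 in Chat-only cells. The ranges do not overlap, and the difference was -2.03 ± 0.18 (SE, adjusted p = 4.33e-06, limma). *Slc18a3* lies on the same strand inside the *Chat* gene (GENCODE M21, GRCm38), so it is not a wholly separate measurement of that locus.

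*Slc5a7*, which takes choline back into the terminal, stood at 1.52, 1.01 and 1.41 against 4.54, 1.97 and 2.86, a smaller difference (-1.08 ± 0.16, adjusted p = 3.69e-04, limma) in the same direction in each mouse. The anchors that hold acetylcholinesterase at the synapse moved with it: *Colq* fell by 2.38 ± 0.38 on the log2 scale from the Chat side to the Nos1 side and *Prima1* by 1.88 ± 0.33, although no *Prima1* UMI was read in Chat-only mouse 1. *Ache*, the esterase itself, stood at 1.02, 0.836 and 0.985 against 1.21, 0.886 and 1.53 and did not pass (-0.35 ± 0.18, adjusted p = 0.246, limma). The exception to the direction was *Slc44a5*, a choline transporter-like protein, at 0.160, 0.332 and 0.331 against 0, 0.121 and 0.198 (1.09 ± 0.30).

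Of the called genes for nitric oxide, the one that renews the substrate of the synthase differed most. *Ass1*, argininosuccinate synthase, which rebuilds arginine from citrulline, stood at 16.5, 16.0 and 12.8 in Nos1-only cells and at 3.93, 1.34 and 1.15 in Chat-only cells. All 3 Nos1-only levels lie above all 3 Chat-only levels (3.35 ± 0.19, adjusted p = 2.38e-08, limma). *Asl*, which completes that cycle, stood at 1.52, 1.50 and 1.39 against 0.605, 1.14 and 1.13 and did not pass (adjusted p = 0.162).

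The list for nitric oxide synthesis and response was called in both directions: of 20 genes tested, 3 were higher on the Nos1 side and 6 on the Chat side (15% and 30%, against 4.78% and 5.53%), with a median log2 difference of -0.16 near that of all genes. *Qdpr*, which regenerates the cofactor tetrahydrobiopterin, was higher on the Nos1 side (1.84, 2.33 and 1.48 against 1.21, 0.664 and 0.630). *Gch1*, the first enzyme in making that cofactor, was lower there (0.721, 0.485 and 0.518 against 1.36, 0.798 and 0.720, a difference of -0.65 ± 0.19). *Dynll1*, a dynein light chain that binds the enzyme, rose by 0.56 ± 0.13.

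The adaptor that binds to neuronal nitric oxide synthase, *Nos1ap*, had a higher level on the Chat side. It stood at 0.0400, 0.0768 and 0.0828 in Nos1-only cells and at 0.454, 0.275 and 0.207 in Chat-only cells (-1.83 ± 0.33, adjusted p = 0.00191, limma). These levels rest on few molecules, 56 UMIs on the Nos1 side and 67 on the Chat side. A single Chat-only cell held 11 of the 67, and the Chat-only level of mouse 1 is 3 UMIs. The scaffolds *Dlg4* and *Dlg2*, *Ddah1*, which breaks down an inhibitor of the synthase, and *Gucy1a1*, a subunit of the nitric oxide receptor, were also lower on the Nos1 side, by 0.60 to 1.23 on the log2 scale. For *Dlg4* mouse 1 went the other way (0.661 against 0.454).

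Neuropeptides differed between the sides by large amounts and in both directions. *Vip*, vasoactive intestinal peptide, which relaxes smooth muscle, stood at 5.54, 8.90 and 10.5 in Nos1-only cells and at 0.151, 0.731 and 0.945 in Chat-only cells (3.59 ± 0.17, adjusted p = 1.27e-08, limma). *Cartpt*, which encodes the CART peptide of enteric neurons, stood at 9.37, 20.9 and 14.1 against 2.42, 2.34 and 0.909 (3.35 ± 0.20, adjusted p = 5.68e-08). Each mouse gave a Nos1-only level well above any Chat-only level for both.

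*Gal*, galanin, stood at 52.6, 110.4 and 75.9 in Nos1-only cells and at 0.151, 14.4 and 1.35 in Chat-only cells (4.19 ± 0.42, adjusted p = 1.21e-05, limma). The middle value comes from a single cell, which held 1904 of the 2144 *Gal* UMIs (88.8%) of Chat-only mouse 2. Without it that level was 1.64, and with such cells left out the difference was 6.03 ± 0.17. *Npy*, neuropeptide Y, stood at 1.38, 1.40 and 0.937 against 0, 0.0134 and 0.0180, which is 4 UMIs in all on the Chat side. Of the 6 tested genes of the list of inhibitory motor neuron peptides and transporters, these 4 were called higher on the Nos1 side (66.7%, against 4.78% of all genes). *Adcyap1* and *Scg2* were not called (adjusted p of 0.425 and 0.234, limma).

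*Tac1*, the precursor of substance P and a main excitatory transmitter of the gut, was the reverse. It stood at 1.34, 1.06 and 1.20 in Nos1-only cells and at 2.27, 6.62 and 7.41 in Chat-only cells, without overlap but with mouse 1 well below the others (-2.44 ± 0.20, adjusted p = 1.72e-06, limma). *Penk*, which encodes the enkephalins, stood at 1.06, 0.942 and 1.02 against 5.14, 3.95 and 3.74 (-2.02 ± 0.15). A single cell gave 28 of the 34 *Penk* UMIs of Chat-only mouse 1, whose level without it was 0.954, below that of the Nos1-only cells of that mouse. With such cells left out the difference was -1.81 ± 0.21.

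Of 7 excitatory motor neuron peptides tested, *Tac1*, *Penk* and *Calca* were higher on the Chat side (42.9%, against 5.53% of all genes). *Pdyn* was higher on the Nos1 side (14.3%, against 4.78%) and 3 were not called. *Calca*, the precursor of calcitonin gene-related peptide, was scarce (0.0801, 0.0329 and 0.0697 against 1.51, 0.0738 and 0.225), and its close relative *Calcb*, at 0.901, 0.806 and 1.89 against 2.87, 0.986 and 1.13, was not called (0.01 ± 0.26, adjusted p = 0.991, limma). *Pdyn*, the dynorphin precursor, passed narrowly at 0.0200, 0.119 and 0.222 against 0, 0.0335 and 0.0360 (adjusted p = 0.0473).

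A cAMP response element is a well known part of the *Vip* promoter, and the windows of 3 peptide genes (*Vip* and *Cartpt*, higher on the Nos1 side, and *Tac1*, higher on the Chat side) and of *Chat* are shown so that they can be compared for its letters. Each run is 250 bases before to 50 bases after the start that RefSeq gives for the gene (GRCm38.p6), with the cAMP response element half-site TGACG, or its other strand CGTCA, in capitals. *Vip* lies at chr10:5638968-5639267 on the plus strand, *Cartpt* at chr13:99900634-99900933 on the minus strand, *Tac1* at chr6:7554811-7555110 on the plus strand and *Chat* at chr14:32465860-32466159 on the minus strand.
Vip: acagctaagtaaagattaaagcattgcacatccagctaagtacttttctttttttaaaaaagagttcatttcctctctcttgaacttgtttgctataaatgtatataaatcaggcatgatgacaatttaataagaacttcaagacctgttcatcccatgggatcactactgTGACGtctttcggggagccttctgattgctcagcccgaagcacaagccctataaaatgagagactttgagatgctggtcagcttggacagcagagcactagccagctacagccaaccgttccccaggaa
Cartpt: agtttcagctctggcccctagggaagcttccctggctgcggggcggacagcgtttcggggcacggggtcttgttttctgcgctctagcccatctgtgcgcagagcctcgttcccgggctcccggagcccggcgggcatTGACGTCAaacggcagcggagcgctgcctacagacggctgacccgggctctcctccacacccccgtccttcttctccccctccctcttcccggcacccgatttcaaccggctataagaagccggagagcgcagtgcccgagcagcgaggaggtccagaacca
Tac1: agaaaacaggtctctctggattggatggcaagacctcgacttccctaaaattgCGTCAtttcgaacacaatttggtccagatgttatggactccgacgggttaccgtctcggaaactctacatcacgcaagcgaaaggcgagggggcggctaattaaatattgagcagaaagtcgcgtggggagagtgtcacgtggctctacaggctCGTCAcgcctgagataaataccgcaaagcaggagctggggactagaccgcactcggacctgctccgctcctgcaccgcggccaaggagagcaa
Chat: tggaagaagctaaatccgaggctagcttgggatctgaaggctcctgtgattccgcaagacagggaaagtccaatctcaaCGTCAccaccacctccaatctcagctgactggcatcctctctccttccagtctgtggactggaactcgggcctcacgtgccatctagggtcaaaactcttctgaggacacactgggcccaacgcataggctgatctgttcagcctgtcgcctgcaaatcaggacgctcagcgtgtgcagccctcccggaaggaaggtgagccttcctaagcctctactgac
The full palindrome TGACGTCA is in the *Cartpt* window, from 112 bases before the start, and covers 2 overlapping half-sites. The half-site begins 79 bases before the start of *Vip*, 197 and 43 before that of *Tac1* and 171 before that of *Chat*, and in windows not printed 49 before that of *Slc18a3* and 19 after that of *Gal*. In the window of *Nos1* it begins 130 bases before the RefSeq start, which lies inside the gene as GENCODE M21 places it, so that window is not the start of the longest gene model. The RefSeq starts of *Cartpt*, *Tac1* and *Chat* also lie inside their GENCODE M21 genes, nearer to the ends of these than that of *Nos1*. The windows of *Npy* and *Slc5a7* hold none on either strand. The letters are thus found on both sides. Among genes called higher on the Nos1 side with a window, 129 of 414 (31.2%) held a half-site, and on the Chat side 138 of 444 (31.1%), against 37.0% of the 8627 tested genes with a window and 20.8% of all 32851 windows. The palindrome was in 11 (2.66%) and 20 (4.50%), against 3.91% and 1.79%. Of 11 genes looked up, 9 had a window, and *Penk* and *Calb2* did not.

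**Figure D3:**
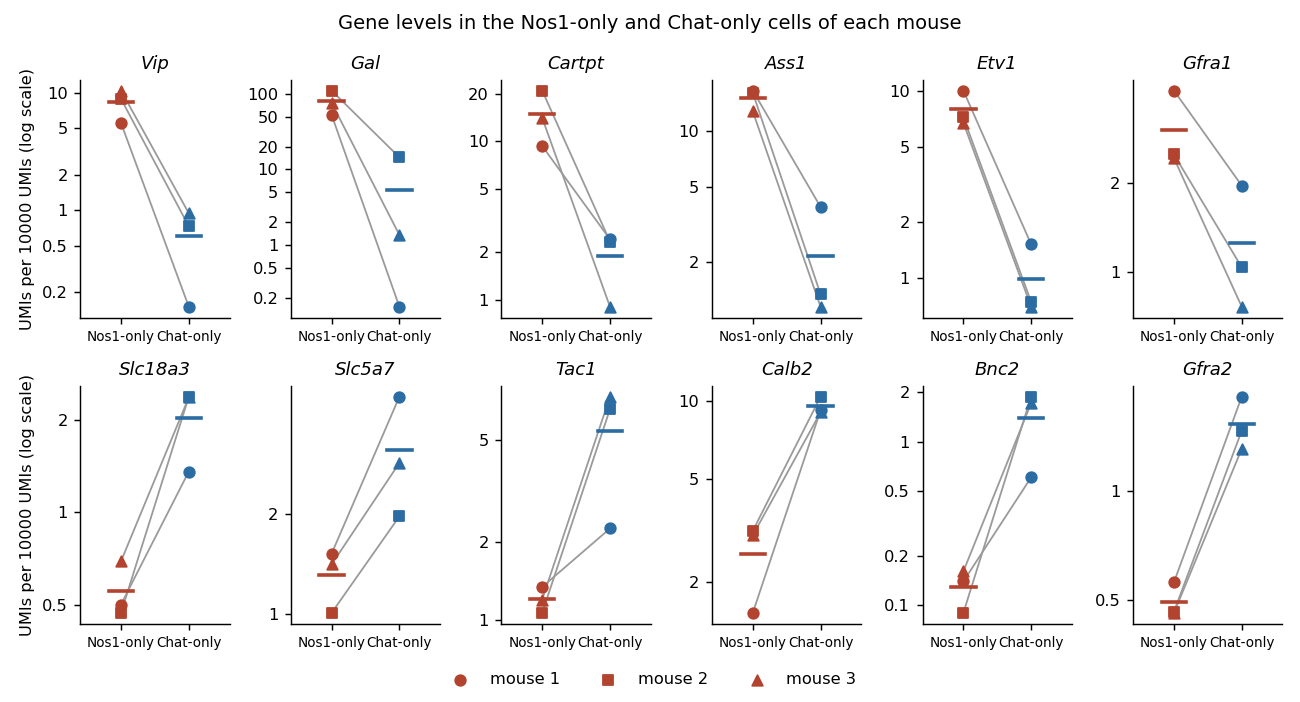
Levels of 12 genes in UMIs per 10000 UMIs on a log axis for the Nos1-only (red) and Chat-only (blue) cells of each mouse, with a line joining the sides of a mouse and a bar at the mean of 3 mice. Vip, Gal, Cartpt, Ass1, Etv1 and Gfra1 fall from left to right in each mouse and the other 6 rise. The Gal level of Chat-only mouse 2 comes mostly from a single cell.

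Genes for transmitters of other neuron classes were low on both sides. Of 23 in the list 10 had enough UMIs to be tested, 1 was higher on the Nos1 side (10%, against 4.78%) and 3 on the Chat side (30%, against 5.53%). *Nmu*, *Nog* and *Cbln2*, which mark sensory neurons of the plexus in mice, were higher on the Chat side, with *Cbln2*, a synapse organiser, at 0.100, 0.0505 and 0.170 against 2.12, 0.255 and 0.378 (-2.15 ± 0.40). Single cells held 36 of 60 *Nmu* UMIs in Chat-only mouse 2 and 12 of 20 and 21 of 32 *Nog* UMIs in mice 2 and 3, and with such cells left out *Nog*, a BMP antagonist, was no longer called (adjusted p = 0.0736, limma). *Grp*, gastrin-releasing peptide, was called higher on the Nos1 side, yet mouse 1 went the other way (0.580, 1.36 and 2.96 against 1.51, 0.912 and 0.351).

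Of 11 genes for peptide processing tested, 3 were higher on the Chat side (27.3%, against 5.53% of all genes) and 1 on the Nos1 side (9.09%, against 4.78%). *Chgb*, a granin of dense-core vesicles, stood at 1.54, 2.19 and 2.71 against 6.95, 6.31 and 8.66 (-1.68 ± 0.14, adjusted p = 1.99e-06, limma). The prohormone convertases *Pcsk1* and *Pcsk2* were lower on the Nos1 side by 1.20 ± 0.20 and 0.74 ± 0.14 on the log2 scale, while *Pcsk1n*, the inhibitor of the first, was higher there (15.3, 24.7 and 19.1 against 16.0, 13.2 and 10.2, mouse 1 nearly equal). The other 7 genes, *Chga* among them, were not called.

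Transcription factors of enteric neuron classes differed often between the sides. Of 37 tested, 5 were higher on the Nos1 side and 17 on the Chat side (13.5% and 45.9%, against 4.78% and 5.53% of all genes). In 19 the sides did not overlap (51.4%, against 18.5%), and the median log2 difference was -0.58. *Etv1* stood at 10.0, 7.20 and 6.74 in Nos1-only cells and at 1.51, 0.745 and 0.702 in Chat-only cells (3.20 ± 0.17, adjusted p = 1.73e-08, limma). *Bnc2*, the factor of the other branch, stood at 0.140, 0.0900 and 0.161 against 0.605, 1.88 and 1.72 (-3.80 ± 0.27, adjusted p = 2.67e-07).

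With *Etv1* on the Nos1 side went *Ebf1* (1.18, 0.981 and 1.21 against 0.302, 0.235 and 0.117), *Tbx3* (3.44, 4.45 and 3.42 against 2.72, 1.57 and 0.954) and, more weakly, *Klf7* (0.56 ± 0.15). *Neurod6* was read almost entirely there, with 126 UMIs against 2, a ratio of 22.9 per UMI sequenced (95% exact interval 6.20 to 191, for counting error only). *Ebf3*, a relative of *Ebf1*, was higher on the Chat side (-1.26 ± 0.19), so members of the Ebf family differed in opposite directions.

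With *Bnc2* on the Chat side went the zinc finger factor *Casz1* (0.380, 0.268 and 0.466 against 1.21, 1.72 and 2.18) and the chromatin organiser *Satb1* (0.681, 0.468 and 0.653 against 1.21, 2.29 and 2.04). *Rbfox1*, an RNA-binding splicing regulator kept in this list, stood at 0.240, 0.158 and 0.301 against 1.21, 2.21 and 2.56 (-3.36 ± 0.22, adjusted p = 1.35e-07, limma). The homeobox genes *Meis1*, *Hmx2*, *Hmx3*, *Cux2* and *Phox2a* of the list were called higher on the Chat side, with *Meis1* at 0.260, 0.169 and 0.370 against 0.605, 0.738 and 1.26 (-1.89 ± 0.20). *Phox2a* was nearly level in mouse 1 (1.46 against 1.66) and apart in the others (1.57 and 1.82 against 5.33 and 4.53).

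The receptors for the glial cell line-derived neurotrophic factor family divided between the sides. *Ret*, the shared signalling receptor, stood at 1.82, 2.21 and 2.61 in Nos1-only cells and at 1.06, 1.13 and 1.20 in Chat-only cells (1.01 ± 0.16, adjusted p = 7.09e-04, limma). Its coreceptor for GDNF, *Gfra1*, was higher on the Nos1 side (4.12, 2.50 and 2.44 against 1.97, 1.04 and 0.765, 1.39 ± 0.17). The coreceptor for neurturin, *Gfra2*, was higher on the Chat side (0.560, 0.465 and 0.462 against 1.81, 1.46 and 1.30, -1.60 ± 0.18). Neither coreceptor overlapped between the sides, which held for 7 of the 10 tested genes of this list (70%, against 18.5% of all genes). *Ntrk3*, the receptor of neurotrophin 3, and *Fgf13* were also called higher on the Chat side, and *Ednrb* and 4 others of the 10 tested were not called. The list thus had 2 calls on the Nos1 side and 3 on the Chat side (20% and 30%, against 4.78% and 5.53% of all genes).

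Of 19 receptors for peptides, catecholamines and fatty acids tested, 6 were higher on the Chat side (31.6%, against 5.53% of all genes), 1 was higher on the Nos1 side (5.26%, against 4.78%) and 12 were not called. *Oprk1*, the kappa opioid receptor, stood at 0.100, 0.241 and 0.288 in Nos1-only cells and at 1.66, 2.63 and 3.09 in Chat-only cells (-3.47 ± 0.19, adjusted p = 1.89e-08, limma). Its ligand precursor *Pdyn* was called on the opposite side, but only narrowly, and kept that call in 5 of the 15 alternatives that could fit it. *Ffar3*, a receptor of short-chain fatty acids, stood at 0.0400, 0.0176 and 0.0784 against 0.151, 0.349 and 0.450, and *Ffar2*, another such receptor, at 0, 0.0176 and 0.0218 against 0.151, 0.148 and 0.162. Both are low, and each value of mouse 1 on the Chat side is a single UMI. *Calcrl*, which forms receptors for calcitonin gene-related peptide and adrenomedullin, was higher on the Chat side as well (-2.10 ± 0.24), as were *Npy1r* and *Sstr1*, which bind neuropeptide Y and somatostatin. *Ptgir*, the prostacyclin receptor, was the exception, with 200 UMIs on the Nos1 side against 1 (a ratio of 72.6, 95% exact interval 12.9 to 2882, for counting error only).

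Among 7 nicotinic and muscarinic receptors tested, *Chrna7* alone was called (14.3%, against 10.3% of all genes), at levels of 0.120, 0.250 and 0.222 against 0, 0.557 and 0.567 (-1.14 ± 0.24), and its sign turned to 0.42 with limma-trend on log2(CPM + 1). The main ganglionic subunits stood alike, *Chrna3* at 1.12, 1.59 and 1.75 against 1.21, 1.56 and 1.59 (0.05 ± 0.16, adjusted p = 0.878, limma). Of 26 serotonin, purine and amino acid receptors, 2 were higher on the Nos1 side (7.69%, against 4.78%) and 8 on the Chat side (30.8%, against 5.53%). The kainate receptor *Grik1* (0.300, 0.494 and 0.701 against 0.605, 1.91 and 2.17) and the serotonin receptor *Htr2b* (0.0801, 0.0856 and 0.222 against 0, 0.376 and 0.684) were on the Chat side. The AMPA receptor subunits divided: *Gria2* and *Gria4* were lower in Nos1-only cells by 0.70 ± 0.15 and 0.60 ± 0.17 on the log2 scale, while *Gria3* was higher there (0.801, 0.307 and 0.331 against 0.151, 0.0805 and 0.171, 1.46 ± 0.33). P2ry6, a receptor of uridine nucleotides, was also higher on the Nos1 side (1.68 ± 0.33).

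Of 16 genes for calcium-binding proteins tested, some of which are used to tell enteric neurons apart, 4 were higher on the Nos1 side and 2 on the Chat side (37.5% called, against 10.3% of all genes). S100a6 stood at 52.7, 64.7 and 44.1 in Nos1-only cells and at 22.8, 22.1 and 14.1 in Chat-only cells (1.52 ± 0.10, adjusted p = 2.35e-07, limma). *Calb2*, calretinin, stood at 1.52, 3.15 and 3.03 against 9.22, 10.4 and 9.06 (-1.80 ± 0.15, adjusted p = 2.04e-06). Neither pair of ranges overlaps. *Ncald*, a neuronal calcium sensor, was higher on the Nos1 side by less than 1 on the log2 scale (0.91 ± 0.16), and 10 genes were not called.

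Of 39 potassium channel genes 3 were called higher on the Nos1 side (7.69%, against 4.78% of all genes) and 8 on the Chat side (20.5%, against 5.53%). Of 29 sodium, calcium and HCN channel genes 1 was higher on the Nos1 side (3.45%, below the share of all genes) and 5 on the Chat side (17.2%). *Kcnj5*, an inward rectifier potassium channel, was read 131 times on the Nos1 side and not once in 2668012 UMIs on the Chat side, which makes it at least 15.9-fold higher there against a floor of 3 UMIs over the side. *Cacna1g*, a T-type calcium channel, gave 86 UMIs against 2 (a ratio of 15.6, 95% exact interval 4.19 to 131, for counting error only). On the Chat side stood *Kcnn3*, a calcium-activated potassium channel that shapes the after-hyperpolarisation (0.0600, 0.0417 and 0.0697 against 0.151, 0.235 and 0.306), and *Cacna1e*, an R-type calcium channel (0.400, 0.202 and 0.383 against 0.605, 1.03 and 1.51, -2.05 ± 0.22). The median log2 differences of these lists were 0.03 and -0.33, the first unchanged with *Kcnj5* at its bound.

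Of 39 genes for vesicle release 4 were higher on the Nos1 side (10.3%, against 4.78%) and 9 on the Chat side (23.1%, against 5.53%). *Unc13c*, which primes vesicles (0.540, 1.19 and 1.05 against 0, 0.349 and 0.279), and the synuclein gene *Sncg* were on the Nos1 side, although *Sncg* was lower there in mouse 1 (5.68 against 7.26). The vesicle proteins *Sv2c*, *Vamp1* and *Syt6* and the fusion clamp *Cplx2* were on the Chat side, by 1.07 to 1.70 on the log2 scale, as was *Snap25* of the core fusion complex.

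Of 43 axon guidance genes 3 were higher on the Nos1 side (6.98%, against 4.78% of all genes) and 11 on the Chat side (25.6%, against 5.53%), and 19 did not overlap (44.2%, against 18.5%). *Epha5*, a receptor of ephrin A ligands, stood at 9.95, 5.88 and 6.01 in Nos1-only cells and at 0.605, 1.69 and 2.64 in Chat-only cells (1.69 ± 0.23, adjusted p = 1.98e-04, limma), and *Epha8*, of the same family, was higher there too (2.33 ± 0.34). The Chat side held more of the semaphorin receptor *Plxna2* (0.140, 0.105 and 0.240 against 0.454, 0.684 and 1.11), of the netrin receptors *Unc5c* and *Unc5d*, and of *Slit1*, a repellent, which had no UMI in Chat-only mouse 1. *Epha7*, in contrast to its relatives, was called higher on the Chat side.

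Among 49 adhesion and matrix genes 6 were called higher on the Nos1 side and 8 on the Chat side (12.2% and 16.3%, against 4.78% and 5.53%). *Alcam* (5.64, 3.55 and 4.48 against 2.72, 1.44 and 1.53), *Cntnap5a* (1.92, 1.08 and 2.19 against 0.756, 0.295 and 0.576) and the collagen *Col25a1* were higher on the Nos1 side. The protocadherin *Pcdh10* (0.300, 0.0966 and 0.253 against 3.93, 0.443 and 0.900), the contactin *Cntn5* and the neurexin ligand *Nxph4* were higher on the Chat side.

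Of 30 general neuronal genes 10 were called (33.3%, against 10.3% of all genes) and 9 did not overlap (30%, against 18.5%). Of these calls 7 were higher on the Nos1 side, among them *Dpysl3* (10.0, 15.4 and 13.3 against 7.11, 7.23 and 6.79, 0.96 ± 0.13) and *Celf4*, and 3 were higher on the Chat side, with the long noncoding RNA *Snhg11* farthest (5.14, 3.31 and 5.07 against 10.7, 10.1 and 17.6, -1.59 ± 0.13). Genes of immature neurons were called on the Chat side alone, 5 of 15 (33.3%, against 5.53% of all genes) against 0 (limma), with 10 not called. At an unadjusted p under 0.05 they were 7 and 2. *Igfbpl1*, a marker of young neurons, stood at 0, 0.0812 and 0.157 against 0, 0.429 and 0.432 and so was unread in mouse 1 on either side, and the proneural factor *Neurod4* showed the same at lower level. *Sox11* (0.580, 0.777 and 1.23 against 1.06, 1.44 and 1.73), *Dcx* and *Btg2* were the others, while *Sox4* was not called. Of 13 cell cycle genes *Tyms* alone was called, higher on the Nos1 side (1.06 ± 0.29, adjusted p = 0.0283, limma). This was 7.69% of the list, below the 10.3% of all genes called in either direction.

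**Figure D4:**
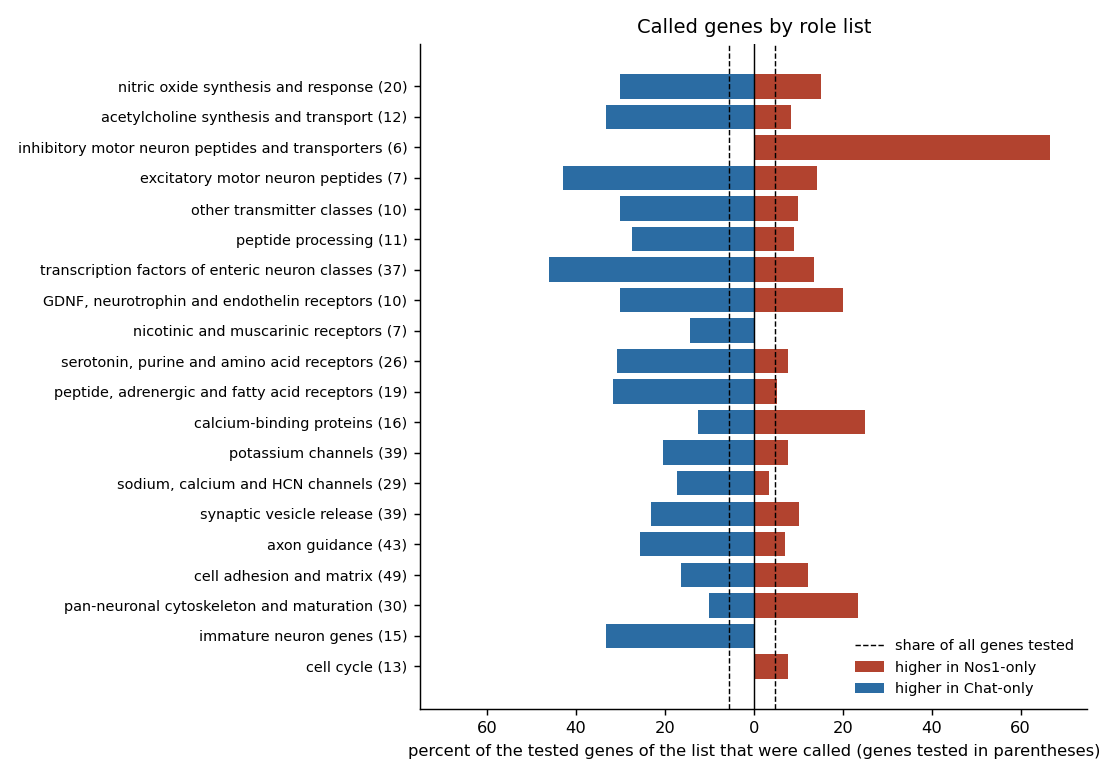
For each of 20 role lists the bars give the percent of its tested genes that were called higher in Nos1-only cells (red, to the right) or in Chat-only cells (blue, to the left), with the number tested in parentheses. The dashed lines mark the shares over all genes tested, 4.78% and 5.53%. The inhibitory peptide list reaches farthest to the right (4 of 6) and the transcription factors farthest to the left (17 of 37).

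Outside these lists, the called genes with the largest differences gave each side a further signature. On the Nos1 side, *Rprml*, a small membrane protein related to reprimo, stood at 1.84, 3.66 and 2.11 against 0.151, 0.242 and 0.216 (3.62 ± 0.24, adjusted p = 1.64e-07, limma). *Kitl*, the ligand of the KIT receptor that interstitial cells of Cajal need, stood at 1.40, 1.19 and 1.05 against 0.151, 0.0604 and 0.126 (3.49 ± 0.35). *Cadps2*, which primes dense-core vesicles, and *Stxbp6*, which binds fusion proteins, were nearly absent from the Chat side, with levels up to 0.0540 and 0.0335 there against 0.492 to 0.821 and 0.405 to 1.12.

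*Aldh1a3*, which makes retinoic acid, stood at 0.741, 0.931 and 0.802 on the Nos1 side against 0.151, 0.0939 and 0.0360. The calcium-binding S100a13 (5.80, 4.55 and 3.80 against 0.907, 0.852 and 0.549) and *Tesc*, the G protein subunit *Gng8*, the phosphodiesterase *Enpp1* and *Thsd7b* made up the rest. The haemoglobin genes *Hbb-bs* and *Hba-a2* met the same rule, but a single cell of mouse 3 held 4835 of the 4839 *Hbb-bs* UMIs of that sum and 923 of its 925 *Hba-a2* UMIs. Without it *Hbb-bs* fell to 0.0176 there, and the call describes that cell.

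On the Chat side, *Dmkn*, which encodes dermokine, stood at 0.200, 0.305 and 0.440 in Nos1-only cells and at 1.06, 2.63 and 3.38 in Chat-only cells (-2.98 ± 0.18, adjusted p = 5.02e-08, limma). *Pi15*, a secreted peptidase inhibitor, stood at 0.100, 0.143 and 0.231 against 2.12, 1.34 and 1.66, and *Ndufa4l2*, a mitochondrial protein, at 0.260, 0.461 and 0.514 against 0.605, 3.86 and 3.29. *Gpc6* and *Sulf2*, a glypican and a sulfatase of heparan sulfate chains that hang on cell surfaces, were both higher there (-2.47 ± 0.18 and -2.35 ± 0.22). *Plcxd3*, the adhesion gene *Sdk2*, the noncoding RNA *Neat1*, *Brinp2*, *Psd3*, *Cdc14a* and the Hox gene *Hoxa6* completed the list.

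The cells outside both sides show how these genes run with the number of *Nos1* transcripts. Values here are means of 3 mice and a description only. The cells just outside the *Nos1* limit (1 UMI, 200 cells) and those just inside it (2 UMIs, 98 cells) were much alike, with *Ass1* at 5.99 and 6.96, *Etv1* at 3.16 and 4.45, *Vip* at 3.07 and 2.65 and *Tac1* at 3.21 and 2.39. The cells with 1 UMI held less neuronal marker RNA (165, 115 and 130) and more glial marker RNA (30.5, 45.0 and 35.3) than Nos1-only cells in each mouse. From there Nos1-only cells with 3 to 5, 6 to 15 and over 15 UMIs had *Etv1* at 6.73, 8.21 and 10.5, *Ass1* at 13.1, 15.6 and 19.6 and *Vip* at 7.66, 9.05 and 10.2. The *Vip* order does not exceed the spread between mice in the last 3 groups. Median UMIs per cell also rose over the *Nos1* groups, from 6962 and 6666 at 2 and at 3 to 5 UMIs to 10288 and 12354, so depth moves with this order, and its part was not tested.

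*Gal* did not follow this order. It stood at 122 in cells with 2 *Nos1* UMIs, with mice between 38.6 and 226, and at 76.1, 89.4 and 38.3 in the groups above. *Slc18a3* ran the other way, from 1.04 in cells with 2 *Nos1* UMIs to 0.381 in those with over 15, and *Bnc2* from 0.254 to 0.157, where mouse 1 gave 5 cells.

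At the *Chat* limit, cells with 1 *Chat* UMI (166 cells) lie just inside and cells with neither transcript (718) just outside. *Tac1* was at 5.34 and 3.12, *Bnc2* at 1.34 and 0.658, *Calb2* at 8.83 and 5.10 and *Oprk1* at 2.21 and 0.847. Chat-only cells with 3 or more *Chat* UMIs came from mice 2 and 3 alone (14 and 23 cells), where *Tac1* stood at 14.1 and 9.69. In each of these 4 genes the mean of the 1-UMI cells was above that of the cells with neither transcript. The latter also held less neuronal marker RNA than the Chat-only cells as a whole (144, 123 and 123) and more glial marker RNA (31.0, 44.9 and 42.2), and their smooth muscle markers summed to 130, 19.8 and 12.1. The part of this makeup in the differences was not tested.

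Cells that held both transcripts lay between the sides in most of these genes. Over the 103 such cells *Ass1* stood at 8.65, 6.43 and 4.42 in mice 1, 2 and 3, *Vip* at 5.09, 3.99 and 2.47 and *Slc18a3* at 1.53, 1.34 and 1.77, each mean between those of the sides. *Tac1* stood at 8.14, 6.18 and 4.91 against 2.27, 6.62 and 7.41 in Chat-only cells, above them in mouse 1 and below them in mice 2 and 3. Mouse 1 gave 4 of these cells, and their median of 12087 UMIs per cell is above that of either side.

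**Figure D5:**
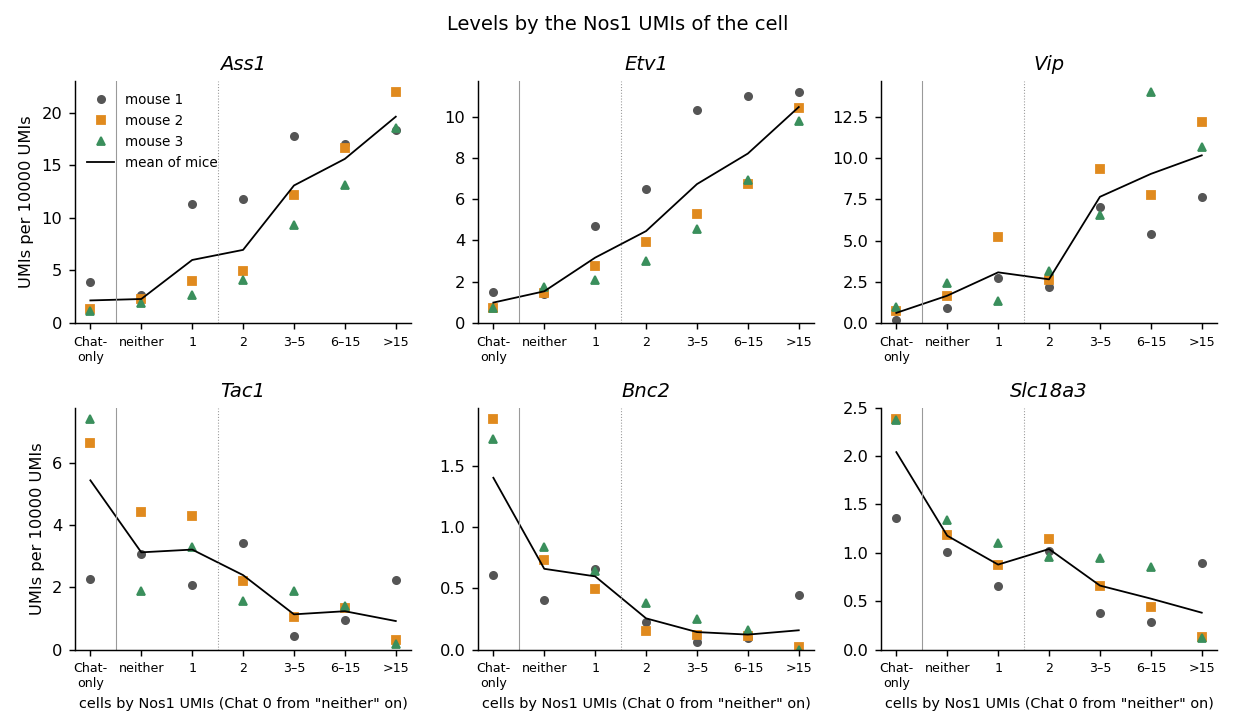
Levels of 6 genes in UMIs per 10000 UMIs for Chat-only cells, cells with neither transcript and cells with 1, 2, 3 to 5, 6 to 15 and over 15 Nos1 UMIs and no Chat, with 1 symbol per mouse and the mean of 3 mice as a line. The dotted line marks the limit of 2 UMIs for Nos1-only cells. Ass1 and Etv1 climb with the Nos1 UMIs, Vip rises from 2 UMIs on, and Tac1, Bnc2 and Slc18a3 are highest in Chat-only cells.

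Single cells showed the same separation with much overlap in detection. At least 1 *Etv1* UMI was found in 93.4% of Nos1-only cells (95% exact interval 91.4% to 95.1%) and in 31.8% of Chat-only cells (26.3% to 37.6%). For *Vip* the shares were 79.4% and 41.2%, and for *Bnc2* they were 9.19% and 67.9%. After thinning each cell to 3000 UMIs the means of 3 mice were 80.3% and 19.3% for *Etv1*, 60.1% and 12.7% for *Vip*, and 3.89% and 35.1% for *Bnc2*. As a guide to free RNA, 138 cells of the table with at least 5 UMIs each of *Acta2* and *Myh11* (median 6484 UMIs per cell), which may themselves hold a neuron, had *Vip* in 45.7%, *Etv1* in 50.7% and *Bnc2* in 26.8%. Of these cells 68 (49.3%) held *Nos1*, so they are not free of neuronal RNA. Pooled over mice, the Chat-only share of *Etv1* and the Nos1-only share of *Bnc2* lie below theirs. For *Vip* the pooled intervals of the Chat-only cells (35.3% to 47.2%) and of these cells (37.2% to 54.3%) overlap. Within mice 1, 2 and 3, however, *Vip* was found in 6.25%, 41.9% and 45.1% of Chat-only cells. In the cells with *Acta2* and *Myh11* it was found in 20.6%, 73.9% and 62.5%, more in each mouse. For *Etv1* mouse 1 went the other way (25% of Chat-only cells against 22.1%). The lower shares are therefore not read as expression, and the part of free RNA in them was not tested.

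Cells were also counted by how many of 4 called genes of their side they held. Of the 762 Nos1-only cells, 146 held all 4 of *Vip*, *Gal*, *Npy* and *Cartpt*, 353 held 3, 197 held 2, 63 held 1 and 3 held none. Of the 277 Chat-only cells, 59 held all 4 of the peptide genes *Tac1* and *Penk*, *Calb2* and the transcription factor *Bnc2*, 88 held 3, 71 held 2, 52 held 1 and 7 held none. The 4 genes of each side differ in abundance and free RNA adds to both sets of counts, so the sets are not compared, and whether genes of a set met in a cell more often than their separate shares give was not tested.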

How the data were processed

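Single-cell RNA-seq had been made from tdTomato-positive small intestinal cells of 3 mice, 1 library each. The authors counted UMIs with Cell Ranger (mm10; version not given in the sources used here), kept cells with set ranges of detected genes and mitochondrial share, merged the mice, removed genes they regarded as confounding, and deposited neurons as natural log values, ln(1 + UMIs per 10000 UMIs of the cell). Every sample column was mapped, leaving 0 outside the sample list.

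Because the unit is a log, whole UMIs were recovered from the smallest value above 0 in each cell. All 6435281 values above 0 (100%) came out whole within 1e-06, and totals include unlisted genes (12.2% and 13.2% of the UMIs of the *Nos1* and Chat sides). Cells were assigned by *Nos1* and *Chat* UMIs and summed by side and mouse (66148 to 4554934 UMIs). The sums were compared with limma 3.58.1 (voom, 0.5 added) in R 4.3.3, with the mouse as a block, over genes with at least 50 UMIs, and Benjamini-Hochberg adjustment over all 11038. *Nos1* and *Chat* were left out of the tests. Sums, not cells, are the observations, and n is 3 mice. A log2 difference is Nos1-only minus Chat-only with its standard error. The steps were tested on simulated data first. Doublets were not called, since those of a neuron with a cell type outside the table could not be found.

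The members and the gene lists were chosen with earlier results of these data known, so no list count is independent support. Named genes are *Nos1*, *Chat*, *Slc18a3* and *Ednrb*, up to 4 called genes of each list in each direction with the largest difference, and the 12 largest in each direction outside the lists with the same sign in 3 mice and at least 300 UMIs, without predicted and sex-linked genes. Some further list members are named with their counts, and a few genes of the lists are not reported here by name. Genes with 0 UMIs on a side are given against a floor of 3 UMIs, and shares of cells have 95% exact (Clopper-Pearson) intervals. Intervals and floors cover counting error only. Genes were placed with GENCODE M21, on GRCm38 (symbols of 32063 of 33353 listed genes matched) and promoters those of RefSeq GRCm38.p6. Alternatives were other weights, scalings, filters, limits for *Nos1* and *Chat*, thinning to 3000 UMIs, cells of several kinds left out, no replicate block and each mouse left out. Leaving out single cells that hold over 50% of the UMIs of a gene in a sum of at least 20 was chosen after seeing the data. The P21 wild-type cells of the study were not used here.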

Additional observations from a re-analysis of the deposited data

How the results depend on the processing

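The 127 named calls nearly all kept their direction, and the number of calls changed much. These genes were picked as large calls from the same sums, so their like signs are no independent support. Fewer of the 127 were called again: 5 with limma-trend on log2(CPM + 1), 16 with limma-trend on log2(CPM + 10) and 6 with means over cells. Without the replicate block 70 were called again, and without mouse 2 it was 82. In the 18 alternatives, each named gene that could be fitted kept its sign except *Chrna7* and *Cacna1h*, which turned to 0.42 and 0.48 with limma-trend on log2(CPM + 1) and to 0.37 and 0.57 with means over cells. Counts higher on the Nos1 side and on the Chat side were 528 and 610. They fell to 3 and 2 with limma-trend on log2(CPM + 1), 9 and 9 with 10 added, 3 and 3 with means over cells, 327 and 367 with at least 5 *Nos1* UMIs, and 252 and 266 with cells thinned to 3000 UMIs. Without cells holding glial marker RNA they were 177 and 183, and without cells holding *Acta2* and *Myh11* they were 288 and 303; both leave fewer genes to test (7815 and 9660). They rose to 957 and 1325 with at least 200 UMIs per gene, where fewer genes were tested (7058), and to 865 and 1752 with at least 2 *Chat* UMIs. Without the replicate block, so that the 3 mice were not paired, they were 90 and 124, of which all 214 had been called in the paired comparison. Leaving out 1 mouse gave 122 to 1024 and 139 to 1524, lowest without mouse 2 and highest without mouse 1. The causes of the changes with weights, limits, depth and mice were not tested. The other 5 alternatives stayed within 1.5 times both counts, among them leaving out single cells that hold over 50% of the UMIs of a gene (537 and 620), which was chosen after seeing the data and under which *Nog* lost its call (its adjusted p ran from 5.91e-07 to 0.307 over all alternatives). At an unadjusted p under 0.05 the main comparison had 2687 genes and the lowest alternative 1053. Depth limits most what can be said of Chat-only cells in mouse 1, where 0 UMIs allow a level up to 0.454.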
